A study of Mus musculus with 6 samples.

Results

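The DNAJ family, also called HSP40, comprises the co-chaperones that carry a J domain. Members were taken from the array as all probes whose transcript accession belongs to a gene with a symbol that begins with Dnaja, Dnajb or Dnajc and a number. This gave 77 probes of 44 genes, among 56605 probes and 22911 named genes in all. There were 4 genes of class A (8 probes), 12 of class B (23 probes) and 28 of class C (46 probes). No probe matched Dnajb5, which is therefore not analysed here.

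A J protein binds unfolded protein, hands it to an HSP70 chaperone and stimulates the HSP70 to hydrolyse ATP, which closes HSP70 on its client. A nucleotide exchange factor then opens HSP70 again. Class A members keep the domains of bacterial DnaJ, class B members lack its zinc-binding region, and class C members share little with it beyond the J domain, which many of them use for a single specialised task. In the endoplasmic reticulum (ER) several J proteins serve the HSP70 chaperone BiP, and some of their genes are known targets of the unfolded protein response. Other members work in the cytosol, in mitochondria, on vesicles or in the nucleus.

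RNA came from C8D1A, a cloned mouse astrocyte line, untreated (control, 3 arrays) or after pulsed radiofrequency (PRF, 3 arrays), a stimulation by short bursts of high-frequency current that is used against neuropathic pain. All cells, controls included, had grown for 6 days in 10% serum and then stood for 24 h in serum-free medium, and the line stems from a single clone. The labels describe 3 independent experiments and RNA of an integrity number of at least 9.5. The labels name neither the dose and duration of PRF nor how long after it the RNA was taken.

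Between 59.5% and 63.9% of the probes were well above background per array, and all 6 arrays lay on 1 slide. Of 11 astrocyte markers 9 were well above background on all 6 arrays, but Slc1a3 and Gja1 were so on none. Markers of the oligodendrocyte lineage were also measured, 6 of 7 on all 6 arrays, with summed signals (linear, before any scaling between arrays) of 81100 to 96500 in control and 73000 to 79800 in PRF cells. Of them Mbp rose, and Mog and Sox10 fell. The neuronal list (4 of 7 on all arrays) had summed signals of 15000 to 16600 and 13600 to 18100, with Rbfox3 and Stmn2 not well above background on any array. For microglia the sums were 5160 to 6110 and 7190 to 11200, with Aif1, Cx3cr1, P2ry12 and Ptprc on no array. For fibroblast and mural cells they were 1630 to 1910 and 1310 to 1590, with Lum on no array, while the median log2 change of this list after scaling was 0.39, and for endothelium 79.9 to 94.1 and 90.0 to 117, with Cdh5 on no array. Genes that rose in these lists were Snap25, Itgam and Col1a1, with Glul in the astrocyte list, and Pdgfrb fell. Col1a2 and Kdr were also called higher, but they entered the test only through the PRF arrays, with Col1a2 well above background on 1 control array and Kdr on 0. The part of such marker changes in the results below was not tested, and in bulk RNA fewer cells of a type and less RNA per cell cannot be told apart.

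Promoter windows of RefSeq (build GRCm38.p6), 250 bases before to 50 after a start site, were found for 36 of the 44 genes, 47 windows in all. They were searched on both strands for heat shock units, the letters bound by heat shock factors, and for the ER stress element of the unfolded protein response. The full heat shock element GAANNTTCNNGAA (TTCNNGAANNTTC on the other strand) was found in 0.603% of the 32851 windows of all genes and, among the members, in Dnajb6 alone. A pair of units, GAANNTTC or TTCNNGAA, each of which reads the same on both strands and lies within the full element, was found in 15.1% of all windows and in 17.0% of the members' windows. The ER stress element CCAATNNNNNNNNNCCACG (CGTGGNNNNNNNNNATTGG on the other strand) was found in 0.119% of all windows and in that of Dnajc3 alone among members. The stretches around the matches of expressed members are shown because they place these letters beside the genes whose changes follow, and capitals mark the letters of the motif.
Dnaja1, chr4:40722329-40722366, plus strand: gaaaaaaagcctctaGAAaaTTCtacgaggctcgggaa
Dnaja4, chr9:54699454-54699529, plus strand: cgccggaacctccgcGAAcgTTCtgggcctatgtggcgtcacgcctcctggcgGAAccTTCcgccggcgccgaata
Dnajb4, chr3:152193846-152193874, minus strand: ttcgttcgttcgctgTTCtaGAAagtaca
Dnajb6, chr5:29735837-29735879, plus strand: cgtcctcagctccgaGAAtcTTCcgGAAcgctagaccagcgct
Dnajc10, chr2:80315269-80315306, plus strand: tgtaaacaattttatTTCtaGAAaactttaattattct
Dnajc27, chr12:4082346-4082383, plus strand: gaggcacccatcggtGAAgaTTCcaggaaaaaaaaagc
Dnajc3, chr14:118937812-118937860, plus strand: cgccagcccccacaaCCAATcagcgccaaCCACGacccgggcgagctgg
The pair in Dnajb4 spans bases -14 to -7 before the downstream of its start sites, and its upstream window held none. The full element of Dnajb6 spans bases -46 to -34 before 1 of its start sites and -127 to -115 before another. The remaining match, a pair in the untested Dnajc5g, is not shown. In Dnajb1, the classic heat-inducible HSP40 gene, neither window held a pair. The 250 bases before its upstream start site are shown as the case without a match.
Dnajb1, chr8:83607925-83608174, plus strand: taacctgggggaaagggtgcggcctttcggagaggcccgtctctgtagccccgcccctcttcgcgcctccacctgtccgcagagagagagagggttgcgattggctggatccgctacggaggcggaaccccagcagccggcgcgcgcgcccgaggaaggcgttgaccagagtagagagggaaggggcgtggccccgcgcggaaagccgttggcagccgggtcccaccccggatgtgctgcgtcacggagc

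After PRF several cytosolic partners of HSP70 from classes A and B rose, and several specialised class C genes fell modestly. Dnajb4, a cytosolic HSP40, was 2.67-fold and Dnajb1 1.59-fold higher, Dnaja4 1.36-fold and Dnaja1 1.29-fold. Dnajc22, the mouse counterpart of the fly endocytosis gene wurst, was 9.40-fold higher from a dim control signal, a log2 change of 3.23 that was 1.55 with normexp background correction. The largest fall was that of Dnajc16, an ER membrane member, which was 1.51-fold lower. Of the 37 genes that could be tested, 7 rose and 8 fell at an adjusted p below 0.05 (limma, Benjamini-Hochberg over all 34838 tested probes). The rises numbered 4 without control replicate 1 or PRF replicate 2 and 5 without any other array, and the falls 3 to 5 without any array but PRF replicate 3, without which they numbered 7. Over all tested probes, 7220 to 10684 were called without 1 array, against 10833 with all arrays.

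A gene was tested through its brightest probe, which had to be well above background throughout either group. The 7 genes that were not tested were Dnajb3, Dnajb7, Dnajb8, Dnajb13, Dnajc5b and Dnajc6, well above background on no array, and Dnajc5g, well above it on 1 PRF array. Several of them are known for expression in testis, and Dnajc6 encodes auxilin, which uncoats clathrin vesicles in neurons. All 37 tested genes were well above background on all 6 arrays. Among all 15069 tested genes 16.3% rose and 13.5% fell, 29.8% in either direction, and in the family 18.9% rose and 21.6% fell, so the share of rises was near that of the whole array. The 3 PRF arrays lay wholly above the 3 control arrays in 11 members and wholly below in 11, against 25.6% of all tested genes each way and 51.1% in either. The median log2 change of the family, -0.01, equalled that of all tested genes. A rise of at least 1.5-fold was called for 3 members and 11.4% of all genes, and a fall of that size for 1 member and 3.27% of all genes.

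**Figure D1:**
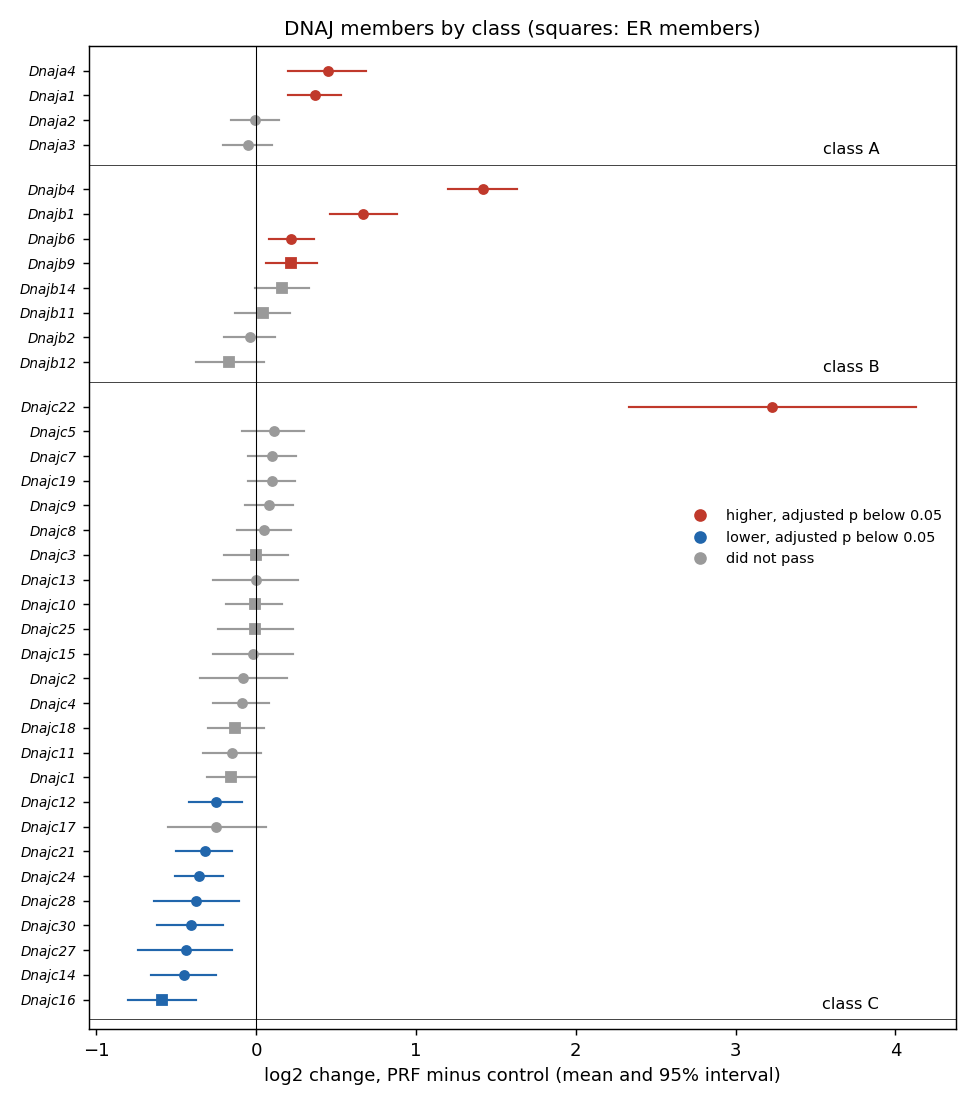
Each point is the log2 change, PRF minus control, of the brightest probe of a tested DNAJ gene (3 arrays per group), with its 95% interval from the limma fit; colour gives the call and squares mark the 10 ER members. Called rises lie in classes A and B apart from Dnajc22 (3.23), and all 8 called falls lie in class C.

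The balance of rises and falls followed the scaling between arrays. It was 7 to 8 (46.7% rises) with each array set to its 75th percentile, 4 to 9 (30.8%) with no scaling and 3 to 14 (17.6%) with scaling to spike-in controls. With the same settings the median change of all tested probes moved from 0.018 to -0.123 and -0.172. Called rises and falls among all 34838 tested probes were 6415 and 4418, then 4093 and 6584 with no scaling, and 4602 and 11169 with spike-in scaling. None of the 15 called members changed sign in any of 18 alternative analyses. As their groups did not overlap, fits on fewer arrays, with blocks or with other filters could not turn a sign. Those with another background correction, scaling or choice of probe could.

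Class A showed 2 rises among 4 tested genes, 0 falls and a median log2 change of 0.18. With spike-in scaling 0 rose and the median was -0.01. Levels below are log2 signals relative to the 75th percentile of the array. Dnaja1, a farnesylated co-chaperone of the cytosol, stood at 6.24, 6.14 and 6.21 on the control arrays and at 6.50, 6.62 and 6.57 on the PRF arrays. Every PRF array was above every control array, with a log2 difference of 0.37 (SE 0.07, adjusted p = 0.00896, limma). Its 2 dimmer probes rose too, 1.66-fold and 3.41-fold, and the mean of its 3 probes rose by 0.96 on the log2 scale. The call of its brightest probe ended without scaling (adjusted p = 0.142) and with spike-in scaling (adjusted p = 0.0941).

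Dnaja4, a close relative of Dnaja1, had control levels of 1.34, 1.59 and 1.55 and PRF levels of 1.80, 1.98 and 2.05. The groups did not overlap, and both of its probes rose by 0.45 (SE 0.10 and 0.09). The call of the brighter probe (adjusted p = 0.0185, limma) was missed without control replicate 1 (adjusted p = 0.0501) or without PRF replicate 2 (adjusted p = 0.0642). Dnaja2, a cytosolic partner of constitutive HSC70, had overlapping groups, 3.69 ± 0.05 for control and 3.68 ± 0.04 for PRF arrays (mean ± SD, n = 3), and the 95% interval of the difference ran from -0.16 to 0.14. Dnaja3, the class A member of mitochondria, had means of 2.34 ± 0.06 and 2.29 ± 0.05 (SD, n = 3), with an interval from -0.21 to 0.10.

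In class B 4 of 8 tested genes rose and 0 fell, with a median log2 change of 0.19, which with spike-in scaling was -0.001. The rises numbered 2 on leaving out any of the 6 arrays and without scaling, and with spike-in scaling there were 2 rises and 1 fall. Without its ER members the class had 3 rises among 4 genes and a median of 0.44. Dnajb4 had control levels of 0.80, 0.70 and 0.62. Its PRF levels were 2.09, 2.25 and 2.03, far above all controls, and the log2 difference was 1.42 (SE 0.09, adjusted p = 1.83e-04, limma). All 3 of its probes rose, by 1.39 to 1.57. By the brightest probe it had the largest rise of classes A and B. The window at the downstream of its start sites carries the pair of heat shock units shown above, as do 15.1% of the windows of all genes. Its upstream window held none, and a part of the pair in the rise was not tested.

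Dnajb1 stood at 4.42, 4.39 and 4.34 in control cells and at 4.91, 5.18 and 5.06 after PRF. The groups were well apart, with a difference of 0.67 (SE 0.09, adjusted p = 0.00254, limma). The spread of the PRF arrays (SD 0.14) was wider than that of the controls (SD 0.04). A single probe measured this gene.

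Dnajb6, which keeps polyglutamine proteins from aggregating, had control levels of 3.25, 3.29 and 3.28 and PRF levels of 3.49, 3.47 and 3.51. The arrays of each group lay close together, and the difference of 0.22 (SE 0.06, adjusted p = 0.0312, limma) was small. The call was missed without any 1 of the 6 arrays (adjusted p from 0.0694 to 0.0958), without scaling (adjusted p = 0.617) and with spike-in scaling (adjusted p = 0.752). Of its 5 probes 4 rose, by 0.22 to 0.57, and the other changed by 0.02. Dnajb2, a member known from neurons, had means of 1.87 ± 0.07 and 1.83 ± 0.04 (SD, n = 3) and overlapping groups, while its dimmer probe rose by 0.49 (SE 0.10, adjusted p = 0.0153, limma).

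**Figure D2:**
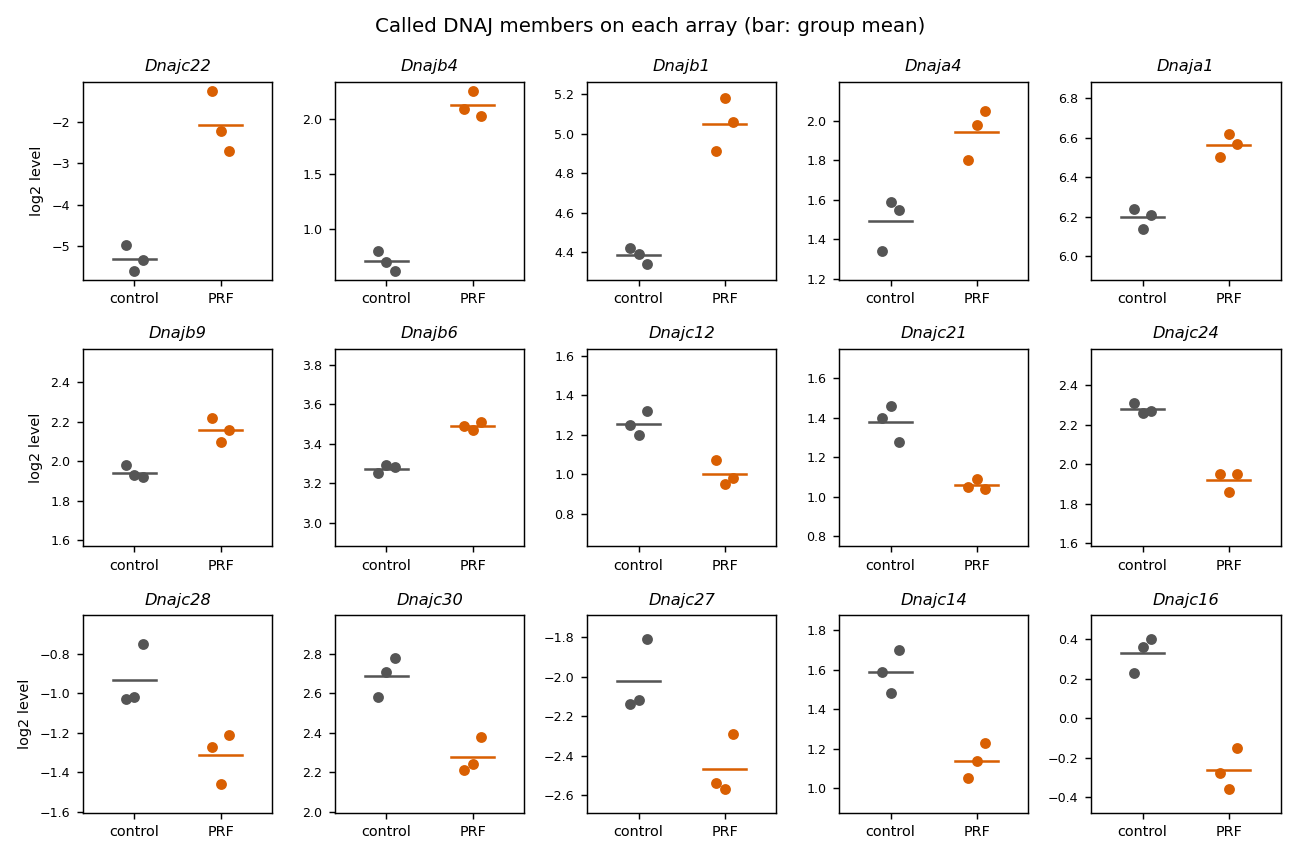
Points are the log2 levels (relative to the 75th percentile of the array) of the 15 called DNAJ members on the 3 control and 3 PRF arrays, in order of their change, with a bar at each group mean; each panel has its own axis of at least 1 log2 unit. No panel shows overlapping groups, and the PRF arrays of Dnajc22 spread widest (SD 0.74).

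Class C had 1 rise and 8 falls among 25 tested genes and a median log2 change of -0.09, which was -0.23 without scaling and -0.28 with spike-in scaling. The difference between the classes was not tested. The rise was that of Dnajc22, whose control levels were -4.97, -5.59 and -5.33. The PRF arrays gave -1.26, -2.22 and -2.71, all far above the controls but scattered, and the difference was 3.23 (SE 0.37, adjusted p = 0.00167, limma). Its control signals of 21.5, 13.2 and 14.8 were well above background yet dim, and with normexp background correction the rise was 1.55 on the log2 scale. That is the member whose size depended most on the processing.

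Dnajc16 had control levels of 0.23, 0.36 and 0.40 and PRF levels of -0.28, -0.36 and -0.15. All PRF arrays were below all controls, with a difference of -0.59 (SE 0.09, adjusted p = 0.00394, limma). Dnajc14, which helps dopamine receptors leave the ER and itself sits at the ER membrane although it was not on the ER list, had a log2 difference of -0.45 (SE 0.09, adjusted p = 0.0100, limma). Dnajc24, an enzyme of diphthamide synthesis on elongation factor, fell by 0.36 and by 0.27 with its 2 probes. These 3 falls passed without any 1 array.

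The other 5 falls were less secure. Dnajc30, a mitochondrial protein that serves respiratory complex I, fell by 0.41 on the log2 scale (adjusted p = 0.0138, limma, and 0.0527 without PRF replicate 2). Dnajc21, needed for ribosome assembly, fell by 0.32 with its brightest probe, whereas 2 further probes had differences of -0.02 and -0.07 and did not pass. Leaving out any of 4 arrays, control replicates 1 and 2 and PRF replicates 1 and 2, ended its call (adjusted p from 0.0527 to 0.0645). Dnajc27, a small GTPase fused to a J domain, fell by 0.44, and Dnajc28 by 0.38. Both passed without PRF replicate 3 but missed the threshold without any other array (adjusted p from 0.0551 to 0.113 for Dnajc27 and from 0.0629 to 0.122 for Dnajc28). Dnajc12, a partner of the aromatic amino acid hydroxylases, fell by 0.25, and its call held without PRF replicate 1 but ended without any of the other arrays (adjusted p from 0.0648 to 0.108).

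The lists by location were chosen with earlier results of these data known, so their counts are a description. Among all tested genes 16.3% rose and 13.5% fell. By location, 5 of 7 tested cytosolic partners of HSP70 from classes A and B rose and 0 fell, with a median of 0.37. Of the 5, Dnaja1, Dnaja4 and Dnajb6 missed the threshold under spike-in scaling (adjusted p = 0.0941, 0.113 and 0.752, limma), and Dnajb6 did so on leaving out any of the 6 arrays (0.0694 to 0.0958). The call of Dnaja4 also ended without control replicate 1 (0.0501) or PRF replicate 2 (0.0642). Of 5 mitochondrial members 0 rose and 1, Dnajc30, fell (median -0.05). Dnajc19, part of the motor that pulls proteins into the matrix, had means of 4.91 ± 0.03 and 5.00 ± 0.02 (SD, n = 3, adjusted p = 0.258, limma). Dnajc11, of the mitochondrial inner membrane organising system, had a difference of -0.15 and Dnajc15 of -0.02, and neither passed. A list of nuclear, ribosomal and RNA members held 6 genes, of which 0 rose and 2 fell, Dnajc21 and Dnajc24 (median -0.16). Dnajc24 was on it although it acts on elongation factor. The splicing-related Dnajc8 and Dnajc17 differed by 0.05 and -0.25, the histone chaperone Dnajc9 by 0.08 and the ribosome-associated Dnajc2 by -0.08, and none of these 4 passed.

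Both tested vesicle and endosome members had overlapping groups. Dnajc5, the cysteine string protein that guards the synaptic vesicle fusion machinery, had control levels of 3.80, 3.77 and 3.57 and PRF levels of 3.79, 3.84 and 3.84. The 95% interval of its difference ran from -0.09 to 0.30. Dnajc13, the endosomal protein RME-8, had means of 1.75 ± 0.14 and 1.75 ± 0.15 (SD, n = 3). Of the members with no place in these lists, Dnajc7, which binds HSP70 and HSP90 through tetratricopeptide repeats, differed by 0.10 and Dnajc4 by -0.09, and neither passed.

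Among the 10 members of the ER, all of them tested, 1 rose, 1 fell and 8 did not pass, with a median log2 change of -0.01. The 1 rise was that of Dnajb9, which serves BiP and restrains the stress sensor IRE1. Its control levels were 1.98, 1.93 and 1.92 and its PRF levels 2.22, 2.10 and 2.16, close together but apart, with a difference of 0.22 (SE 0.06, adjusted p = 0.0454, limma). The call was missed without any 1 of the 6 arrays (adjusted p from 0.0759 to 0.124), without scaling (adjusted p = 0.683) and under spike-in scaling (0.761). Its dimmer probe differed by 0.25 (SE 0.14) and did not pass. The 1 fall was that of Dnajc16, given above. With spike-in scaling 0 ER members rose and 4 fell, while 11169 of all 34838 tested probes fell. With normexp 1 ER member rose and 2 fell, while 7326 of all tested probes rose and 4656 fell.

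Dnajb11, Dnajc3 and Dnajc10, known targets of the unfolded protein response like Dnajb9, had overlapping groups by their brightest probes. Dnajb11, an abundant BiP partner of the ER lumen, had control levels of 4.54, 4.61 and 4.59 and PRF levels of 4.52, 4.66 and 4.68. The 95% interval of the difference ran from -0.13 to 0.21. A second bright probe of the gene differed by 0.10, but its dimmest probe rose by 1.14 (SE 0.20, adjusted p = 0.00833, limma), from -1.48, -1.73 and -1.75 to -0.07, -0.60 and -0.86. By the mean of a gene's probes Dnajb11 was called higher (0.43, adjusted p = 0.00711, limma) and Dnajb9 was not (adjusted p = 0.0976), so the rise counted among ER members was then that of Dnajb11. Dnajc3, also known as P58IPK, stood at 0.77, 0.92 and 0.78 in control cells and at 0.72, 0.83 and 0.93 after PRF. Its interval ran from -0.20 to 0.20, and its promoter is the one with the ER stress element shown above. Dnajc10, the disulfide reductase ERdj5, had levels of 2.46, 2.58 and 2.61 against 2.49, 2.59 and 2.54, an interval from -0.19 to 0.16.

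The remaining ER members split between small differences of both signs. Dnajc1, which contacts the ribosome from the ER membrane, had levels of 1.95, 1.99 and 1.88 against 1.74, 1.84 and 1.77. All PRF arrays were lower, by 0.16 in the mean, and the adjusted p was 0.121 (limma). Dnajc1 was called lower with normexp (-0.19, adjusted p = 0.0451) and with spike-in scaling (-0.35, adjusted p = 0.0175, limma). Dnajc25 had levels of -0.51, -0.57 and -0.68 against -0.60, -0.44 and -0.74 and overlapped. Dnajb12 and Dnajb14 hold their J domains towards the cytosol and take part in ER-associated degradation. Dnajb12 went from 1.32, 1.46 and 1.30 to 1.26, 1.05 and 1.27, lower on all PRF arrays (difference -0.17, adjusted p = 0.207, limma). Dnajb14 went from 0.94, 0.95 and 1.05 to 1.11, 1.23 and 1.10, higher on all of them (difference 0.16, adjusted p = 0.141, limma). These 2 relatives thus had differences of opposite sign, neither of which passed, though with spike-in scaling the difference of Dnajb14 was -0.03 and that of Dnajb12 passed (adjusted p = 0.0282, limma). Dnajc18, of the same membrane, had levels of 2.33, 2.49 and 2.39 against 2.24, 2.24 and 2.34 (difference -0.13, adjusted p = 0.228, limma), with overlap of the groups. With spike-in scaling Dnajc18 differed by -0.32 and passed (adjusted p = 0.0304, limma).

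**Figure D3:**
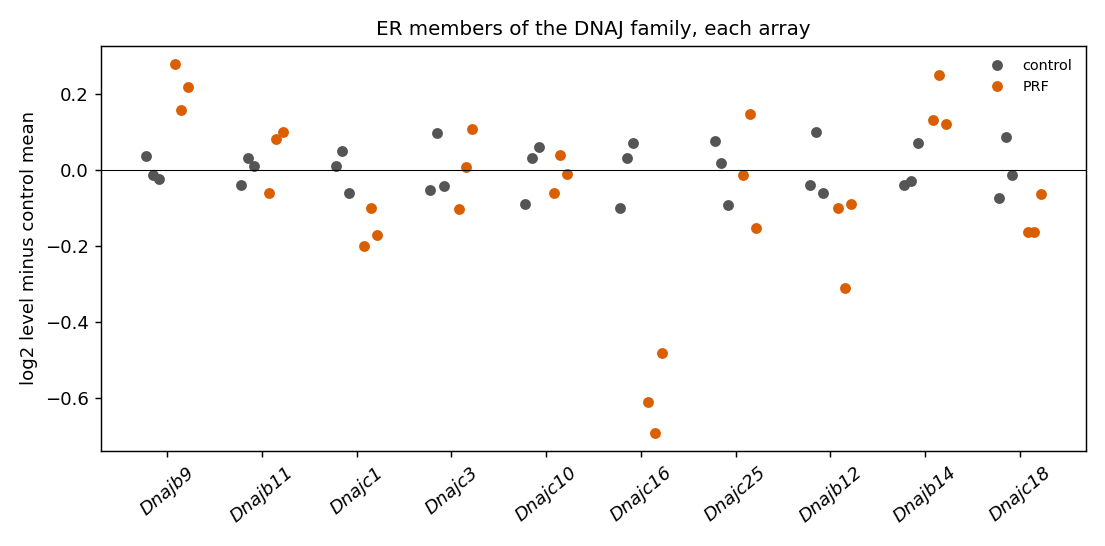
Each point is the log2 level of an ER member on an array minus the mean of its control arrays (3 control arrays grey, 3 PRF arrays orange). The PRF arrays of Dnajb9 lie above and those of Dnajc16 below their controls, while those of Dnajb11, Dnajc3, Dnajc10 and Dnajc25 overlap them.

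Probes of the same gene did not always move alike. Over all 67 tested probes of the family 17 rose (25.4%) and 9 fell (13.4%), against 18.4% and 12.7% of all tested probes, 31.1% in either direction. Of the 19 genes with several tested probes, 4 had every probe called in the same direction (Dnaja1, Dnaja4, Dnajb4 and Dnajc24), 10 had no probe called and 5 had some called (Dnajb2, Dnajb6, Dnajb9, Dnajb11 and Dnajc21). The rises of Dnajb2 and Dnajb11 rest on their dimmest probes. The RefSeq table also holds the pseudogenes Dnaja1-ps, Dnajb6-ps and Dnajc19-ps, so probes of these genes may bind RNA of a copy, and their values are uncertain to that extent.

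**Figure D4:**
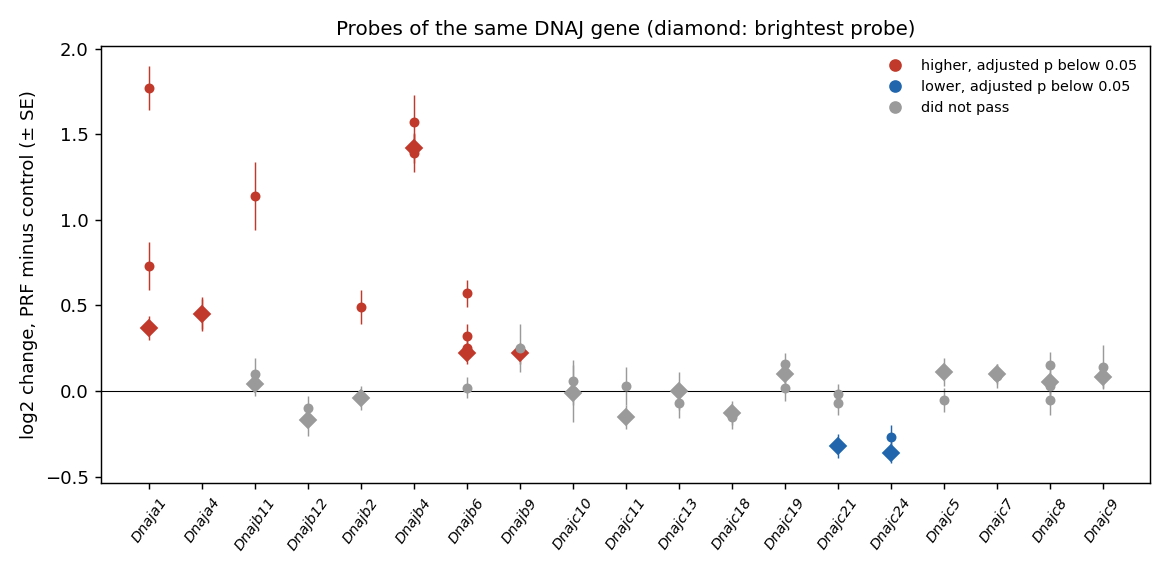
For each of the 19 DNAJ genes with several tested probes, points show the log2 change of each probe, PRF minus control, with its SE, coloured by call; a diamond marks the brightest probe, which stands for the gene. The 3 probes of Dnajb4 lie together between 1.39 and 1.57, and those of Dnaja1 spread from 0.37 to 1.77.

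The arrays of the slide lay in 2 rows, with 2 control arrays and 1 PRF array in row 1 and 1 control array and 2 PRF arrays in row 2. With 1 array in an arm, the differences within a row are given as values and no test is read from them. Dnajb4 differed by 1.54 within row 1 and 1.36 within row 2 on the log2 scale, and Dnajb1 by 0.80 and 0.60. Dnaja1 differed by 0.39 within each row, Dnaja4 by 0.53 and 0.34, Dnajc22 by 2.93 and 3.60, Dnajc16 by -0.68 and -0.57, and Dnajc14 by -0.50 and -0.35. With row as a block 5 members rose and 5 fell, and 8525 of all tested probes were called against 10833 without it.

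The HSP70 proteins that J proteins serve changed in a few genes. Of 11 tested HSP70 genes 3 rose and 1 fell, with a median of 0.17, where 16.3% of all tested genes rose and 13.5% fell. The stress-inducible Hspa1a and Hspa1b rose by 5.02 (SE 0.08, adjusted p = 1.05e-05, limma) and 4.62 (SE 0.10) on the log2 scale, and Hspa1l, their neighbour in the genome, by 1.84 (SE 0.15). These 3 genes are close in sequence, and their probes may bind each other's RNA. Hspa8, the constitutive HSC70, differed by 0.17 (adjusted p = 0.128) and Hspa5, which encodes BiP, also by 0.17 (adjusted p = 0.103, limma), and neither passed, but with the mean of all probes of a gene both did (adjusted p = 0.0220 and 0.0245). With spike-in scaling both differed by -0.02. Hspa14 fell by 0.21, a call that ended on leaving out any of the 6 arrays (adjusted p from 0.0762 to 0.113, limma). By the mean of its probes it differed by 0.07.

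Of 14 nucleotide exchange factors 3 rose and 0 fell, with a median of 0.12. Among all tested genes 16.3% rose and 13.5% fell, so the share of rises in this list was near that of the whole array. The counts of the list were 2 and 3 with spike-in scaling and 3 and 1 with quantile normalization. Hsph1, an HSP110 that works with HSP70 and J proteins to dissolve aggregates, rose by 2.06 (SE 0.17), Bag3, which links HSP70 to autophagy, by 0.56 (SE 0.08) and Hspa4l by 0.37 (SE 0.07). The call of Hspa4l ended without scaling (adjusted p = 0.159) and with spike-in scaling (adjusted p = 0.113, limma). The J proteins with other names, Sec63 of the ER translocon, Hscb and Gak, were tested and 0 of 3 passed, with differences from -0.05 to 0.06.

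Of 19 tested targets of the unfolded protein response 3 rose and 0 fell, with a median of 0.07. Among all tested genes 16.3% rose and 13.5% fell, so the share of rises in the list was near that of the whole array. The 3 were Ppp1r15a (1.5, SE 0.13), Atf3 (0.76, SE 0.09) and Atf4 (0.53, SE 0.07), which are known as genes of the integrated stress response, shared with stresses outside the ER. Ddit3 (-0.15, adjusted p = 0.359) and Trib3 (0.21, adjusted p = 0.341, limma), also on the list, did not pass. The ER chaperones and folding enzymes of the list, among them Hsp90b1 (0.16), Calr (0.07), Pdia4 (0.21) and Pdia6 (-0.02), did not pass. Nor did Xbp1 (-0.33), Syvn1 (-0.29) and Sel1l (-0.23). Of the 19 genes 10 had differences above 0 and 9 below. The call of Atf4 was missed without scaling (adjusted p = 0.0633, limma). Without scaling 2 genes of the list rose and 3 fell, with spike-in scaling 3 rose and 6 fell, and without PRF replicate 3 the counts were 3 and 2. They were 3 and 3 with normexp, and 3 and 2 with quantile normalization and with scaling to the median of tested probes.

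**Figure D5:**
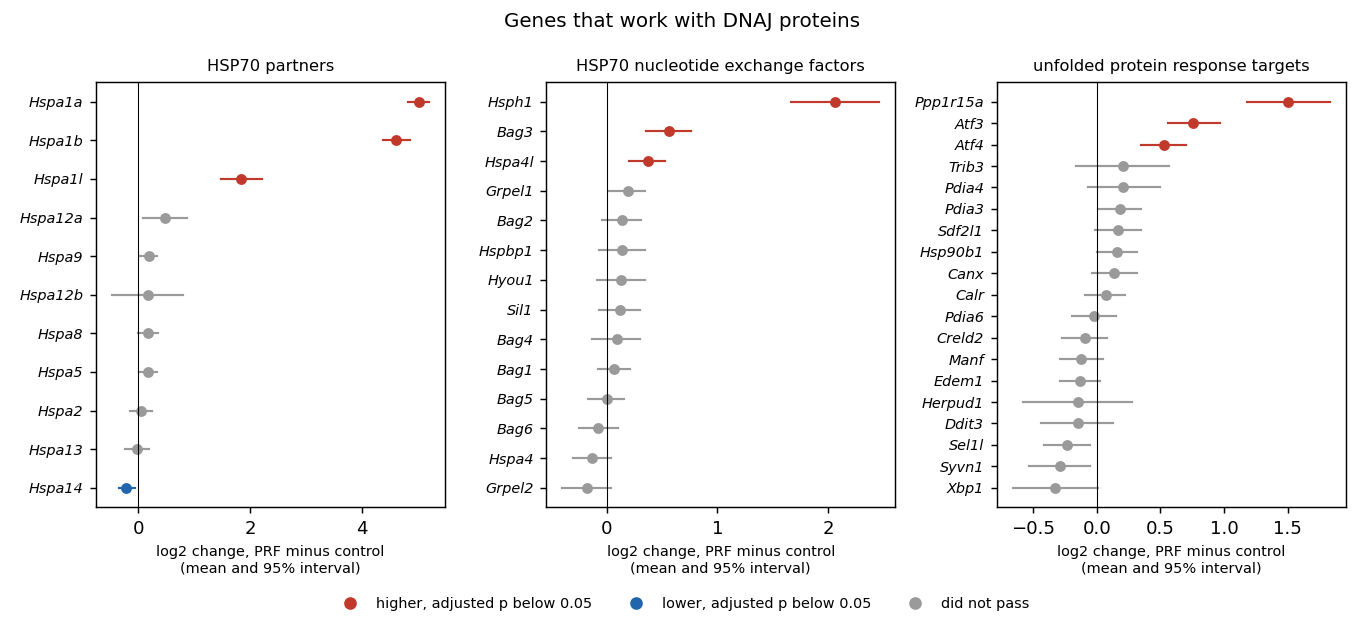
Log2 changes, PRF minus control, with 95% intervals, for the tested HSP70 genes (11), nucleotide exchange factors (14) and targets of the unfolded protein response (19), coloured by call; the 3 panels have different axes. Hspa1a (5.02), Hsph1 (2.06) and Ppp1r15a (1.5) head the panels, and most other genes lie near 0.

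Set beside the promoter letters, 6 of the 7 members that rose had a promoter window, and 4 of these, Dnaja1, Dnaja4, Dnajb4 and Dnajb6, held a pair of heat shock units. Of 6 members that fell and had a window 1 held a pair, Dnajc27, and of 18 that did not pass 1 did, Dnajc10. Dnajb1 and Dnajb9 rose and had no pair in these windows. A pair lay in 15.1% of the windows of all genes and in 17.0% of the members' windows. A gene with several windows can hold a pair in any of them. The share among all genes of the array that rose or fell was not counted. The counts are a description of these letters, and no test of them was made.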

How the data were processed

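The deposited intensity of each array is the background-subtracted processed signal of Agilent Feature Extraction 10.7.3.1, 1 colour (Cy3), per the file headers, with no scaling between arrays. The authors' deposited series table equals these values, averaged over the spots of a probe, within a relative tolerance of 0.0001 for at least 99.98% of probes. Control spots and spots with outlier flags were left out, log2 signals of a probe were averaged, and the 75th percentile of the array was subtracted. Probes well above background throughout either group were tested with limma 3.58.1 in R 4.3.3, group as the only term, with adjustment over 34838 probes and a threshold of 0.05. Such a filter can admit a gene through the group where it is high, but the 37 members tested were above background on all 6 arrays. Accessions were named through RefSeq (GRCm38.p6), which named 32994 of 56605 probes. The array design uses an older build, so its coordinates are not given.

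The probe with the highest mean stands for its gene. Every member is accounted for. Values on every array are given for members called with at least a 1.5-fold change, the largest called change of each class, the ER members and a fixed set (Dnaja1, Dnajb1, Dnajb4, Dnajb6, Dnajb9, Dnajb11, Dnajc3, Dnajc5). Of the other lists, at most 4 called genes and Hspa8, Hspa5 and Sec63 are named, and further genes that did not pass were added after their values were seen. Members and lists were chosen with earlier results of these data known. On simulated arrays the fit was checked for the recovery of known changes. Alternatives covered background, scaling, filter, probe choice, array row, replicate block and leaving out each array. Precision is limited by having 3 arrays in each group.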

Additional observations from a re-analysis of the deposited data

How the results depend on the processing

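The signs of the 15 called members held with every other background correction, scaling and choice of probe. In the fits on fewer arrays, with blocks or with other filters they could not turn, because the groups did not overlap. Dnaja1, Dnajb1, Dnajb4, Dnajc14, Dnajc16, Dnajc22 and Dnajc24 passed without any 1 array. Against 7 members higher and 8 lower, the counts were 5 and 5 with array row as a block and 4 and 9 without scaling. They were 3 and 14 with spike-in scaling and 5 and 5 without a filter. Leaving out 1 array gave 4 to 5 higher and 3 to 7 lower. The family median was -0.03 with row as a block, 0.006 and -0.071 within rows 1 and 2, -0.032 with normexp, -0.155 without scaling, -0.068 with scaling to the median of tested probes, -0.203 with spike-in scaling and -0.034 to 0.0 without 1 array. The ER median was 0.054 and -0.098 within rows 1 and 2, -0.152 without scaling, -0.065 with median scaling, -0.2 with spike-in scaling and -0.061 to 0.004 without 1 array. The class A median was 0.039 without scaling, 0.114 with quantile normalization, 0.125 with median scaling, -0.01 with spike-in scaling and 0.22 with the mean of a gene's probes. In that order without quantile normalization, class B gave 0.048, 0.135, -0.001 and 0.256, and 0.158 with normexp. Class C gave -0.234 without scaling, -0.147 with median scaling and -0.283 with spike-in scaling. The mean of a gene's probes turned Hspa14 from -0.21 to 0.07. The HSP70 genes called higher, 3 by the brightest probe, were 5 with normexp and 6 with the mean of probes. Each fit within a row has an arm of 1 array, assumed to vary like the others, so no calls are counted from it. The calls over all tested probes moved as well, as given above for no scaling, spike-in scaling, row as a block and leaving out 1 array. Of 34838 probes 11982 were called with normexp, 11612 with median scaling and 12477 with quantile normalization. Without a filter 8694 of 56605 probes were called, and with the mean of a gene's probes 4846 of 15069 genes. The cause of these shifts was not tested.

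Deviations of samples with the same replicate number had correlations of 0.145, -0.084 and 0.046, and those of other combinations -0.174 to 0.132. The numbers were not taken as pairs, but with 3 arrays per group these values cannot exclude pairing. The replicate number also equals the column of the array on the slide. With a replicate block 5 members were called higher and 7 lower, and 9422 of all tested probes were called against 10833. Dim probes, such as that of Dnajc22 in controls, limit how exactly a fold can be given.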
